A study of Mus musculus with 2 samples.

Results

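Genes of motile cilia and of transport inside cilia were examined in whole lungs of tumour-bearing mice. The 45 genes were taken from a list of names, 29 for parts and regulators of motile cilia and 16 for the intraflagellar transport (Ift) and Bardet-Biedl (Bbs) genes, out of 18194 genes that the array reads with single-gene probe sets. All single-gene probe sets under a listed name or its alias were read, 72 in all, and Spag6 was read both as Spag6 and as its near relative Spag6l, which has carried the same name. The lungs came from C57BL/6 mice, 6 to 8 weeks old when 500000 Lewis lung carcinoma (LLC) cells in 200 µL were injected into the tail vein, and were removed on day 19. LLC is a mouse lung carcinoma line that forms tumours in the lung after intravenous injection. In the control group the cells had been transfected with vector, and in the other they overexpressed TDAG8, a receptor encoded by Gpr65 that senses protons and raises cyclic AMP. Both groups therefore carried tumour cells, and no lung without tumour cells was analysed here. Each group was a pool of RNA from 10 lungs on 1 array. Neither group had a replicate array here, so nothing was tested, the spread between mice is unknown, and array and group cannot be told apart.

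Motile cilia are the beating projections of multiciliated cells, which clear mucus from the airways. Each is built on an axoneme, a ring of doublet microtubules around a central pair, moved by dynein arms and held in register by radial spokes and links. The transcription factor Foxj1 turns on these genes together with RFX factors, which bind a near-palindromic DNA element called the X-box. The Ift proteins carry cargo along the axoneme and the BBSome sorts membrane proteins, and almost every cell type with a cilium uses both, including cells with a single non-motile primary cilium. The comparison asked whether genes of the motile axoneme and these general transport genes differed alike between the lungs.

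The promoters are shown first because an X-box arm was more frequent among the members than among all measured genes. Promoters of 300 bases, 250 before to 50 after the start of the gene, came from RefSeq (build GRCm38.p6) and were found for 39 of the 46 genes that the 45 names cover. The arm GTTGCC, searched on both strands so that GGCAAC counts as well, was in the promoters of 17 of 26 motile cilia genes (65.4%) and 6 of 13 Ift and Bbs genes (46.2%). It was in 15.1% of the promoters of 9633 measured genes and in 14.1% of all 27025 genes with a promoter. Below are 30-base windows, 5′ to 3′ on the strand of the gene, with the arm in capitals. They show the 6 brightest motile genes with an arm, Tekt4, Hydin and Tekt2 as genes at least 2-fold lower, and the Ift genes Ift172, Ift140 and Ift88. Members with an arm that are not shown include lower ones such as Rfx2. They also include Spag16 and Spef2, both at a log2 ratio of -0.09, Rfx3 at 0.17 and Ift57 at 0.28.
Dynlrb2 (chr8:116504952-116504981, plus strand): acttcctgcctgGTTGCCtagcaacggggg
Ccdc153 (chr9:44240513-44240542, plus strand): ctgagttttccaGTTGCCtggacaacgtgc
Pifo (chr3:106001492-106001521, minus strand): ttccgttcccttGGCAACgtagtacacaga
Mlf1 (chr3:67373980-67374009, plus strand): gtgtttacagagGTTGCCatagcagccgag
Tekt1 (chr11:72361880-72361909, minus strand): tgcgtccgtccgGTTGCCatagagaccgca
Dnaic2 (chr11:114727381-114727410, plus strand): ccagggttgctaGGCAACtggtaaactccg
Tekt4 (chr17:25471586-25471615, plus strand): caatgttccttaGGCAACcaggaaccttgc
Hydin (chr8:110266952-110266981, plus strand): tgcggttgctgtGGCAACagatggtaacaa
Tekt2 (chr4:126325693-126325722, minus strand): gggcggttgctcGGCAACcagagccgcaaa
Ift172 (chr5:31291097-31291126, minus strand): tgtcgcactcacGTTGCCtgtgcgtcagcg
Ift140 (chr17:25015965-25015994, plus strand): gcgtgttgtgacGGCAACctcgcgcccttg
Ift88 (chr14:57424080-57424109, plus strand): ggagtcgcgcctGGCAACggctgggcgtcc

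The 250 bases before the start of Dynlrb2 are given whole because it was the brightest gene with an arm, which began 51 bases before the start.
Dynlrb2 (chr8:116504765-116505014, plus strand): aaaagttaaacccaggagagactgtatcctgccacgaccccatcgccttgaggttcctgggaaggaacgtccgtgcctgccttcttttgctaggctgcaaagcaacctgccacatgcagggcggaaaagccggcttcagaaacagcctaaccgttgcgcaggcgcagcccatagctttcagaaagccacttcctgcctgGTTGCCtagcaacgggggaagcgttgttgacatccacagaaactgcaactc

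A stricter X-box, GT, any 2 letters, CCAT, any letter, G, any letter and AAC, was in 0 of 26 motile and 0 of 13 Ift and Bbs promoters and in 0.644% of those of measured genes. A looser form, the arm GTTGCC, any 3 letters, G, any 2 letters and AC, was added after that count was seen and so overlaps with the arm. It was in 6 of 26 motile promoters (23.1%) and 3 of 13 Ift and Bbs promoters (23.1%), against 1.68% of those of measured genes. The forkhead letters TGTTTAC were in 2 of 26 motile promoters (7.69%), those of Ak7 and Mlf1, in 0 of 13 Ift and Bbs promoters and in 3.19% of those of measured genes. These matches are letters in a window and say nothing of binding.

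**Figure D1:**
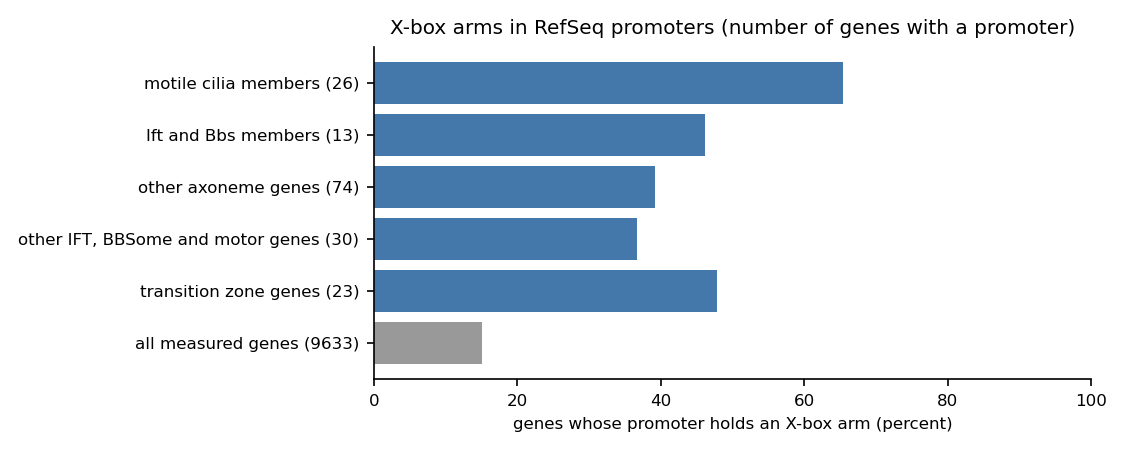
Percent of genes whose RefSeq promoter (300 bases) holds an X-box arm on either strand, for each gene list, with the number of genes that have a promoter in brackets. The motile cilia genes stand at 65.4%, the Ift and Bbs genes at 46.2% and all measured genes, the grey bar, at 15.1%.

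Among the other cilia lists the arm was in 39.2% of the promoters of other axoneme genes, 36.7% of those of other transport genes and 47.8% of those of transition zone genes. The arm was thus found in lists that differed in their expression ratios. The stricter X-box, absent from the member promoters, was in 4 of 74 promoters of other axoneme genes (5.41%). It was also in 1 of 30 of other transport genes (3.33%) and 2 of 23 of transition zone genes (8.7%), against 0.644% of those of measured genes. Motile cilia genes with an arm had a median log2 ratio of -0.82 (16 measured genes) and those without one -0.66 (8 genes), with overlapping ranges. For the Ift and Bbs genes the order was the opposite, at -0.14 with an arm (6 genes) and -0.38 without one (7 genes).

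Expression was read as deposited array intensity, in arbitrary units that are comparable between arrays for 1 probe set and not between genes. A dim signal was raised to a floor, the 50th percentile of its array, which was 26.3 for the control and 24.3 for TDAG8. The ratio is the log2 of TDAG8 over vector control after centring on the median gene, so that 0 is the typical gene and -1 is a 2-fold lower level. Where only 1 array was above the floor the fold is a bound and carries the words at least. Of the 45 names, 44 had a gene above the floor on at least 1 array. Spag17, a central apparatus gene, was below it in both of its probe sets, and so was Spag6 itself, at 0.1 and 0.8, so the name Spag6 rests on Spag6l, and cross-signal between these copies was not tested. Of the 44 measured genes 39 were above the floor on both arrays. The remaining 5, Rfx2, Tekt2, Dnaic1, Dnah5 and Dnah11, were above it in the control only, so that their direction follows from that filter. Across 11044 genes with both values over the floor, which are no replicates, the arrays correlated at a Pearson r of 0.936 on the log2 scale and the ratios had an SD of 0.55. The only measure of spread at hand is the pooled SD of the ratio between probe sets of 1 gene, 0.27 over 4775 genes. These probe sets share the same 2 arrays, so it holds no difference between mice and none between repeat arrays. The lung markers were bright on both arrays, with Sftpc at 7476 and 6605 and Scgb1a1 at 10112 and 8731. Gpr65 was at 32.3 in the control and 73.9 in the TDAG8 array, and whether its mouse probe set reads the transfected sequence is unknown.

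Motile cilia genes were lower in lungs with TDAG8-overexpressing cells, whereas the Ift and Bbs genes were split between higher and lower. The 28 measured motile genes had a median log2 ratio of -0.76, a 1.69-fold lower level, and the median was also -0.76 over the 23 of them with both values above the floor. At least 1.5-fold lower were 22 of the 28, against 12.1% of all 11949 measured genes. Among those above the floor on both arrays 19 of 23 were at least 1.5-fold lower, against 12.2%. At least 2-fold lower were 6, Rfx2, Tekt2, Tekt4, Dnah5, Spag6l and Hydin, against 1.19% of all genes, and 3 of these, Rfx2, Tekt2 and Dnah5, were bounds. That count was 3 after loess centring and 3 over genes on both arrays, 1 where the floor was the 65th percentile and 0 where an offset replaced it, against 0.887%, 1.09%, 0.704% and 0.259% of all genes. Below 0 were 27 of 28, against 50.1%, and 22 of the 23 on both arrays, against 5522 of 11044 genes, except that Dnaic1 and Spef2 lay just above 0 after quantile normalization and after loess centring. In whole-lung RNA fewer ciliated cells and less RNA per ciliated cell cannot be told apart. Neither can be told apart from a larger share of RNA from other cells, whose part was not tested. With a floor at the 65th percentile 17 motile genes stayed measured and 11 of them were at least 1.5-fold lower, against 10.7% of all genes at that setting. With an offset on the log scale in place of the floor the count was 13, against 7.2%.

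The 16 Ift and Bbs genes were all above the floor on both arrays. Their median was -0.13, with 8 below 0 and 8 above, near the 50.1% of all measured genes below 0. Only Ift88 was at least 1.5-fold lower, 6.25% of the 16 against 12.1% of all measured genes. None was at least 1.5-fold higher, against 14.4% of all measured genes. The motile median minus the Ift and Bbs median was -0.64 on the log2 scale. Of the 23 motile genes above the floor on both arrays 12 had a ratio below that of Ift88, against 5.74% of all measured genes. Ift88 was the lowest of the Ift and Bbs genes. Below the Ift and Bbs median lay 20 of the 23, against at most 42.7% of all measured genes, the share below Spag16 at -0.09. None of the Ift and Bbs genes, 0 of 16, lay below the motile median, although Ift88 at -0.757 was just above it. Only about 5.6% of all measured genes lay below that median, so 0 of 16 is near the share of all genes. The 2 sets nevertheless overlapped, since Rfx3, Spag16, Spef2 and Dnaic1 had ratios inside the range of the transport genes and above their median. With the floor at the 65th percentile the Ift and Bbs median was 0.07, over 11 genes.

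**Figure D2:**
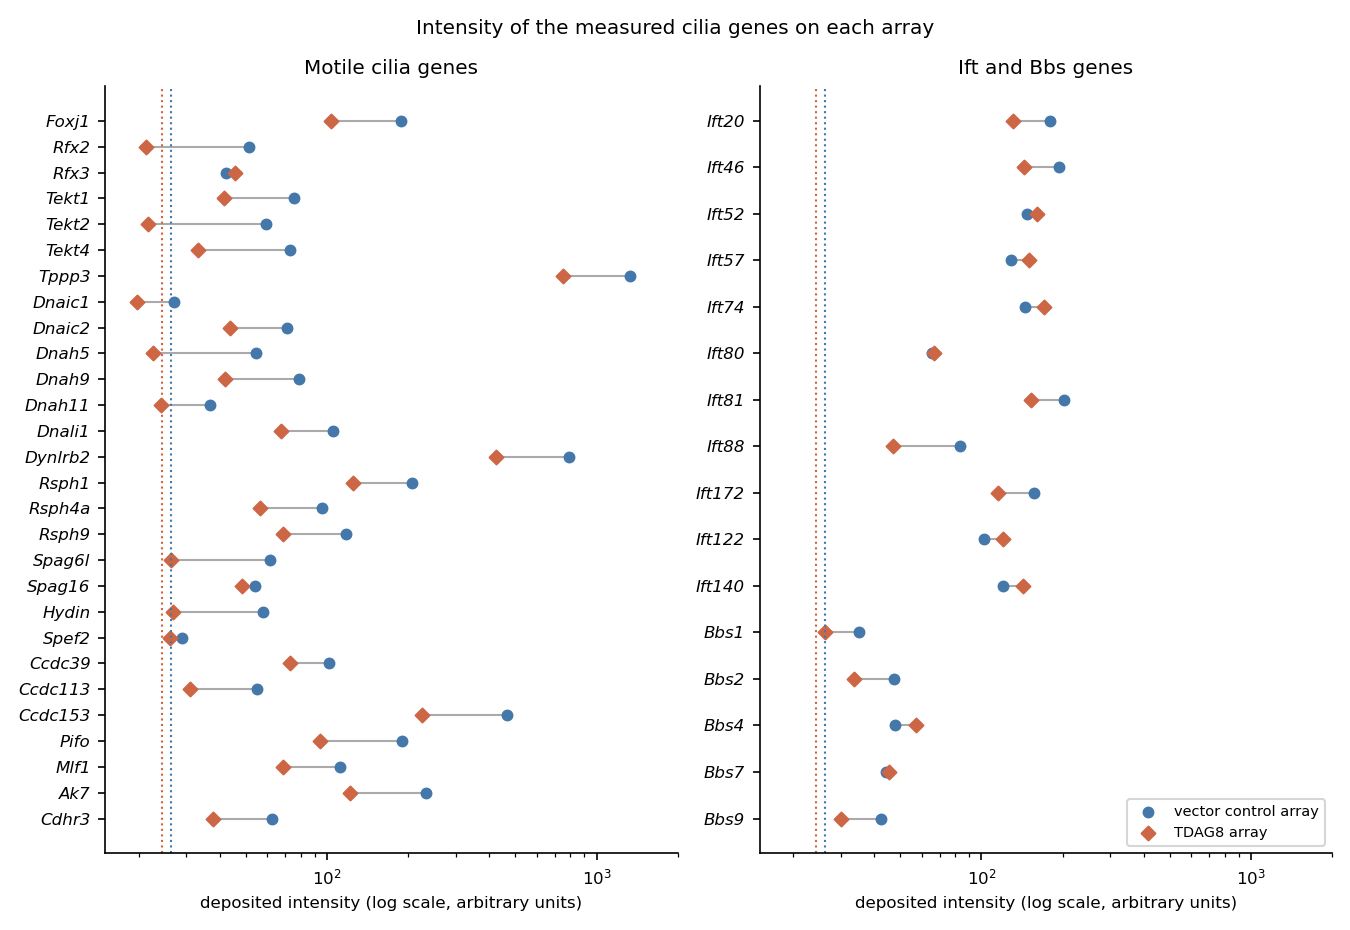
Deposited intensity of each measured gene (log axis, arbitrary units) on the vector control array (blue circles) and the TDAG8 array (orange diamonds), joined by a grey line, with dotted lines at the floors of 26.3 and 24.3. In the left panel the diamond lies left of the circle for every motile cilia gene but Rfx3, and in the right panel 8 of 16 Ift and Bbs genes have the diamond on the right.

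Of the transcription factors Foxj1, the regulator of motile ciliogenesis, went from 188.5 in the control to 103 in the TDAG8 array. It was 1.75-fold lower, and 4.12% of measured genes had a lower ratio. Rfx2, an X-box factor active in multiciliated cells, went from 51.5 to 21.2, under the floor, and was thus at least 2.04-fold lower. Its 3 other probe sets were below the floor on both arrays, and with the mean over all probe sets its log2 ratio was -0.28. Rfx3, an X-box factor of motile and primary cilia alike, went from 42.3 to 45.6, a log2 ratio of 0.17, and was the only measured motile gene above 0.

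The tektins and the tubulin-binding protein gene Tppp3 were all lower. Tektins form filaments that line the doublet microtubules. Tekt1 went from 75.2 to 41.5, 1.74-fold lower. Tekt4 went from 72.6 to 33.2, 2.10-fold lower, and Tekt2 from 59.2 to 21.7, at least 2.34-fold lower. The value for Tekt2 is a bound, since its TDAG8 signal was under the floor. Tppp3 went from 1329 to 754, 1.69-fold lower, and was far above the floor on both arrays. With the floor at the 65th percentile the ratios of Tekt1 and Tekt4 became bounds of -0.29 and -0.24.

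The dynein genes had lower intensities throughout, but 3 of 7, Dnah5, Dnah11 and Dnaic1, were under the floor in the TDAG8 array. The direction of these 3 follows from that filter. The outer arms, which drive the beat, hold heavy chains, which are the motors, and intermediate chains. The heavy chain gene Dnah9 went from 78.4 to 41.7, 1.81-fold lower, while Dnah5 went from 54.6 to 22.5, at least 2.16-fold lower. Another heavy chain gene, Dnah11, went from 36.7 to 24.2, at least 1.45-fold lower, with its TDAG8 value just under the floor of 24.3. The intermediate chain gene Dnaic2 went from 71.2 to 43.7, 1.56-fold lower. Dnaic1, the other intermediate chain gene, went from 27.0 to 19.7 in a control signal barely above the floor, so its bound of 1.07-fold says little. With a floor at the 30th percentile the log2 ratio of Dnaic1 was -0.38. Dnali1, a light intermediate chain of the inner arms, went from 105 to 67.2, just past the limit of 1.5-fold, and its second probe set differed from the first by 0.02 on the log2 scale. Dynlrb2, a roadblock-type dynein light chain, went from 790 to 425, 1.79-fold lower. Its close relative Dynlrb1, a light chain of dynein in cells at large, went from 829 to 814, a log2 ratio of 0.03.

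The radial spoke head genes had the narrowest range of any group of motile genes with at least 3 members. Radial spokes reach from the doublets to the central apparatus. Rsph1 went from 206 to 124.5, Rsph4a from 95.6 to 56.3 and Rsph9 from 118 to 68.3. Their log2 ratios ran from -0.73 to -0.67, so the 3 genes differed from each other by less than the spread between probe sets of 1 gene.

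The central apparatus genes were uneven. Spag6l went from 61.5 to 26.3 and was 2.25-fold lower, and Hydin went from 57.7 to 26.7 and was 2.08-fold lower. Both of these TDAG8 values lay just above the floor. Spag16 went from 53.9 to 48.5, a log2 ratio of -0.09, and Spef2 from 28.9 to 26.1, also -0.09, close to the typical gene. All of these genes were dim, and the other probe sets of Hydin, Spag16 and Spef2 were below the floor on both arrays.

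Coiled-coil genes and further genes of motile cilia complete the set. Ccdc153 went from 464 to 225, 1.98-fold lower, and Ccdc113 from 54.7 to 31.0, 1.69-fold lower. Ccdc39, part of the molecular ruler that sets the repeat of the axoneme, went from 101 to 73.0, 1.33-fold lower and short of the 1.5-fold limit. Pifo, named for pitchfork and linked to cilium disassembly, went from 189 to 94.1, 1.93-fold lower. Ak7, an adenylate kinase of cilia, went from 233 to 122, 1.84-fold lower. Mlf1 went from 112 to 68.5, 1.57-fold lower, and Cdhr3, a cadherin of ciliated airway cells, from 62.5 to 37.7, 1.59-fold lower.

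The difference was not limited to dim signals. Among the 23 motile genes above the floor on both arrays, the 6 with both intensities at or above 100, Foxj1, Tppp3, Dynlrb2, Rsph1, Ccdc153 and Ak7, had ratios from -0.99 to -0.67 with a median of -0.82. The other 17 had a median of -0.71. Across these 23 genes, which share the same 2 arrays, ratio and mean log2 intensity had a Pearson r of -0.27 and a Spearman rho of -0.15. At the level of probe sets, 23 of the 24 motile ones above the floor on both arrays were below 0, against 10 of 20 for the Ift and Bbs genes. This nearly repeats the count by gene, since Dnali1 alone of the motile genes had 2 such probe sets. The share over all probe sets was not computed. By gene, 5522 of 11044 above the floor on both arrays were below 0.

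The IFT-B complex carries cargo toward the tip of the cilium. Of its 9 genes 5 were below 0, near the 50.1% of all measured genes. Ift88 alone lay near the motile median, at 82.9 in the control and 47.1 in the TDAG8 array, 1.69-fold lower. Ift20, which also works at the Golgi, went from 179 to 131, Ift46 from 194 to 143, Ift172 from 156 to 115 and Ift81 from 202 to 153. These 4 had log2 ratios from -0.39 to -0.34. On the other side Ift52 went from 148 to 161, Ift57 from 129 to 150, Ift74 from 145 to 171 and Ift80 from 65.6 to 66.9, with ratios from 0.09 to 0.29. Both measured probe sets of Ift81 were below 0 and both of Ift80 above, differing by 0.05 and 0.04. Ift74 and Ift81, which bind tubulin as partners, had ratios of 0.29 and -0.34.

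The IFT-A complex, which serves return transport and entry of membrane proteins, was represented by Ift122 and Ift140. Ift122 went from 102 to 120, a log2 ratio of 0.29, and its second probe set was at 0.09. Ift140 went from 120.5 to 142, a ratio of 0.30. In the BBSome Bbs2 went from 47.3 to 33.5, Bbs9 from 42.3 to 30.0 and Bbs1 from 35.2 to 26.2, with ratios from -0.44 to -0.37. Bbs7 went from 44.3 to 45.5, a ratio of 0.10. Bbs4 was at 0.32 in the probe set that stands for it, which went from 47.8 to 57.1, but a second one of like brightness went from 48.4 to 42.3, a ratio of -0.14. The direction of Bbs4 is therefore not settled. All Bbs genes were dim, and differences of this size are close to the spread between probe sets.

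Companion lists of cilia genes outside the 45 had a median below 0 for the axoneme and medians near 0 for transport and for dynein assembly, with no test of the difference between lists. Of 91 other axoneme and motile cilia genes 56 were measured, 48 of them on both arrays, and 29 were at least 1.5-fold lower, against 12.1% of all measured genes, with a median of -0.59. Among the 48 on both arrays 25 were at least 1.5-fold lower, against 12.2%. The median over the 48 was also -0.59, and 7 of the 56 were above 0, among them Nme7 at 0.64 as the only one at least 1.5-fold higher. The 4 brightest were Tmem212, which went from 534 to 264 (-0.96), Fam183b from 235 to 101 (-1.16), Cfap126 from 234 to 158 (-0.51) and Cetn4 from 178 to 169 (-0.01). Rsph14 was 2.02-fold lower and Spag8 at least 2.22-fold lower. Of 32 other genes for transport, the BBSome and its motors 28 were measured, with a median of 0.04, 1 at least 1.5-fold lower, Ttc30a1 at -0.84, and 3 at least 1.5-fold higher, Bbs5 at 0.70, Ttc21b at 0.68 and Tctex1d2 at 0.64. The higher share, 10.7%, is near the 14.4% of all measured genes, and the lower one is 3.57% against 12.1%. The 4 brightest were Ift43 at 0.15, Kifap3, a subunit of the kinesin that drives IFT-B, at 0.29, Dynlrb1 at 0.03 and Bbip1 at -0.29. The 20 measured transition zone and primary cilium genes, of 26 listed, had a median of -0.15. Of their 4 brightest Rab8a was at 0.03, Pkd1 at -0.65, Cep83 at 0.39 and Cep164 at 0.14.

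**Figure D3:**
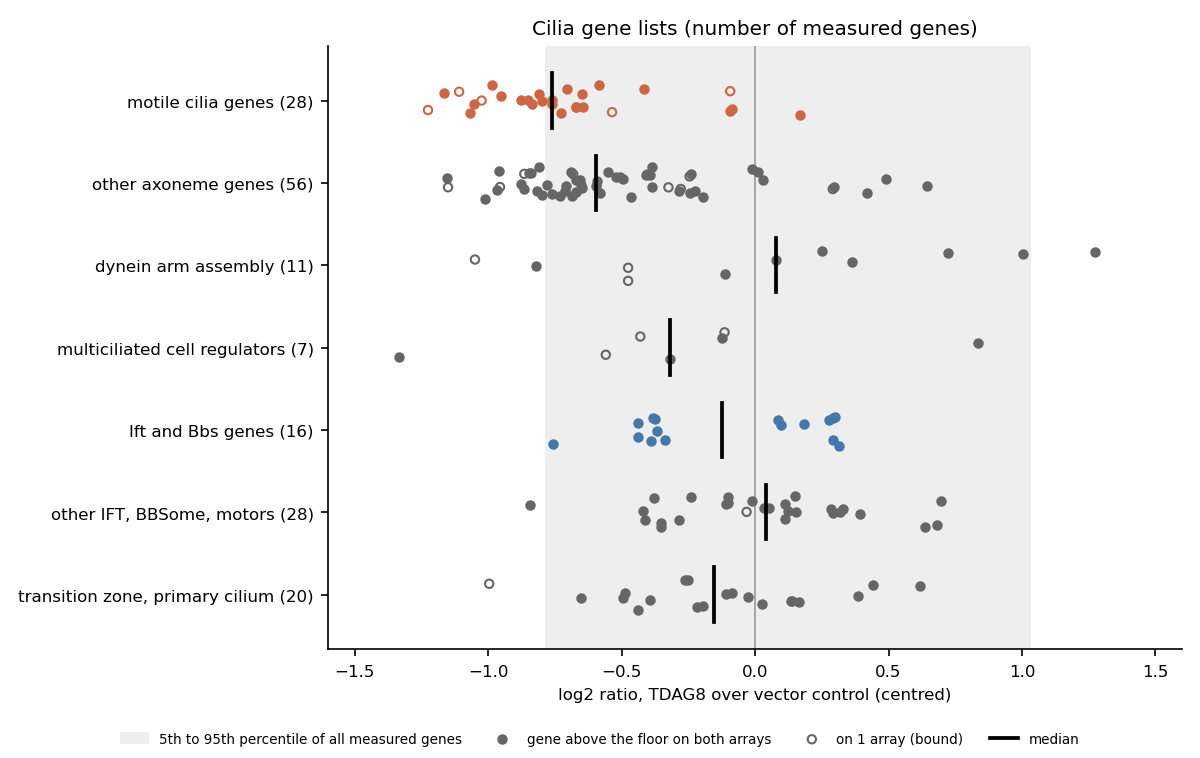
Log2 ratio of TDAG8 over vector control for each measured gene of 7 cilia lists, with filled points for genes above the floor on both arrays, open points for bounds, black bars for medians and grey shading from the 5th to the 95th percentile of all measured genes. The motile list (median -0.76) and the other axoneme list (-0.59) lie to the left, and the Ift and Bbs list (-0.13) and the other transport list (0.04) straddle 0.

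Factors that assemble dynein arms in the cytoplasm went both ways. Of 15 listed genes 11 were measured, with a median of 0.08, and 5 of them were below 0, against 50.1% of all measured genes. Of these 5, Dnaaf4, Lrrc6 and Zmynd10 were above the floor in the control only, so their direction follows from that filter. Over the 8 above the floor on both arrays the median was 0.31, with 2 below 0, against 5522 of 11044 genes. Dnaaf1 was among these 8, at -0.82, and Dnaaf4 and Lrrc6 had bounds of -0.48. Zmynd10, a factor of ciliated cells, was at 52.4 in the control, under the floor in the TDAG8 array, and at least 2.07-fold lower. Dnaaf2 went from 66.1 to 153, 2.42-fold higher, and the chaperone ATPase genes Ruvbl1 and Ruvbl2, which act in many complexes of growing cells, were 2.01-fold and 1.65-fold higher. The other bright members, Dnaaf5 and Pih1d1, were at 0.36 and 0.08. At least 2-fold higher were 5.41% of all measured genes. Regulators of multiciliated cells were mostly dim, with 7 of 11 measured and 4 on both arrays, and a median of -0.32. Ccno, Deup1 and Trp73 were above the floor in the control only, so their direction follows from that filter. Over the 4 on both arrays the median was -0.22, with ratios from -1.33 to 0.84. Myb, which acts early in multiciliated cells and also in blood progenitors, went from 256 to 97.3, 2.52-fold lower. E2f4 was at 0.84, E2f5 at -0.13 and Rfx1 at -0.32.

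Marker lists of club, alveolar type 1 and endothelial cells also had medians below 0, alveolar type 2 markers were less far below it, and macrophage and cell cycle genes were above 0. All 13 measured club cell genes, of 14 listed, were below 0 with a median of -0.65, the brightest being Scgb1a1 at -0.15. All 12 alveolar type 1 genes had a median of -0.62 with Ager at -0.51, and all 14 endothelial genes one of -0.74 with Calcrl at -0.65. At least 1.5-fold lower were 9 club (69.2%), 7 alveolar type 1 (58.3%) and 11 endothelial genes (78.6%). The share was 78.6% for the measured motile genes as well, and 12.1% for all measured genes. The 11 alveolar type 2 genes, of 12 listed, had a median of -0.42, with Sftpc at -0.12, 10 below 0 and 0 at least 1.5-fold lower. The 3 measured goblet cell genes of 9 listed were all at least 1.5-fold lower, Clca1 4.01-fold and the brightest, Muc5b, 1.58-fold, and the 5 airway basal cell genes were below the floor on both arrays. Monocyte and macrophage genes had a median of 1.20, with 10 of 11 above 0 and Csf1r at 0.20, and cell cycle genes one of 2.15, with 12 of 12 above 0 and Pcna at 0.91. Summed over the measured genes of a list, which the brightest probe sets dominate, intensity went from 56787 to 39390 for club cells, from 15977 to 9273 for endothelium, from 3451 to 5862 for macrophages and from 2233 to 6663 for the cell cycle. The part of these other cells in the lower level of motile cilia genes was not tested. The motile median of -0.76 stood beside -0.74 for endothelium, and no test of a difference between lists was possible.

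**Figure D4:**
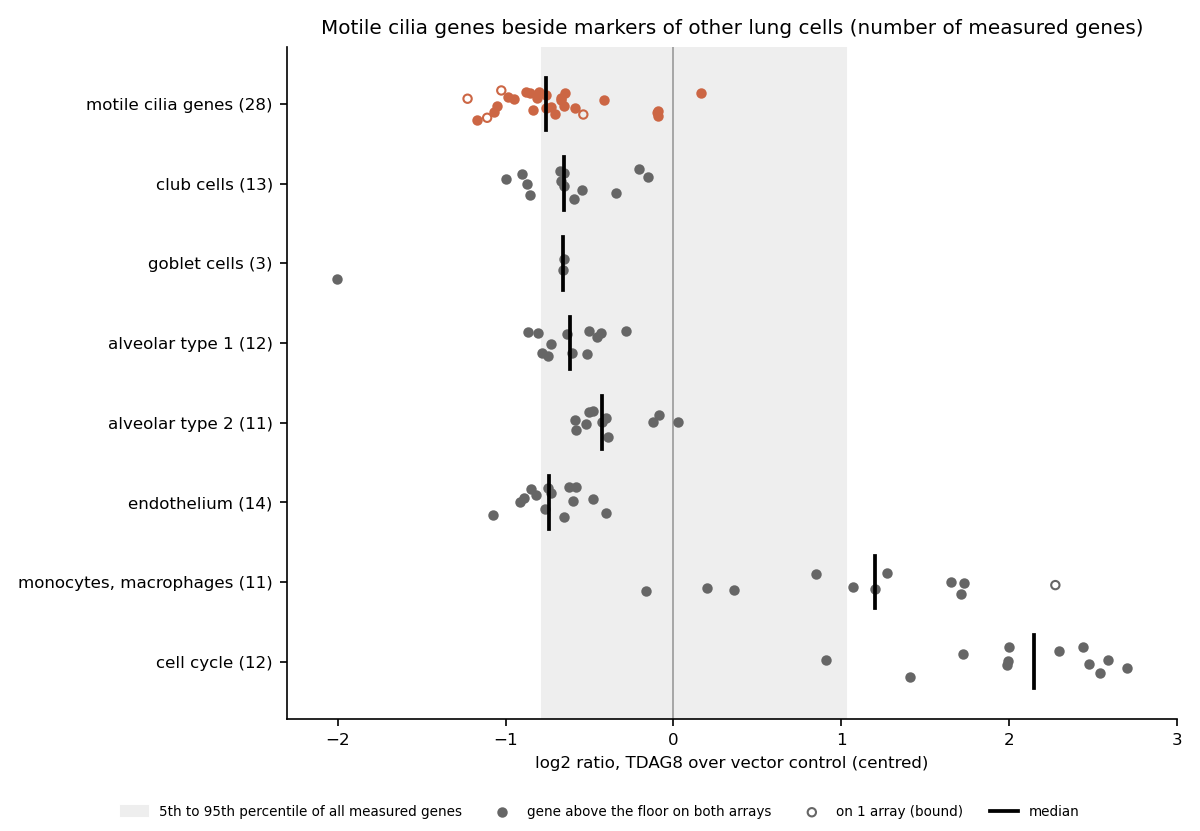
Log2 ratio of TDAG8 over vector control for each measured gene of the motile cilia list and of marker lists of other lung cells, drawn as in the plot of cilia lists. Motile cilia, club, alveolar type 1 and endothelial genes have medians from -0.76 to -0.62, while macrophage and cell cycle genes have medians of 1.20 and 2.15.

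The medians of both member groups were recomputed under 9 other processing choices. The motile median stayed below the Ift and Bbs median under each of them, with differences from -0.74 to -0.49. Leaving out the centring could not change the difference of -0.64, since the same shift applies to both medians.

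**Figure D5:**
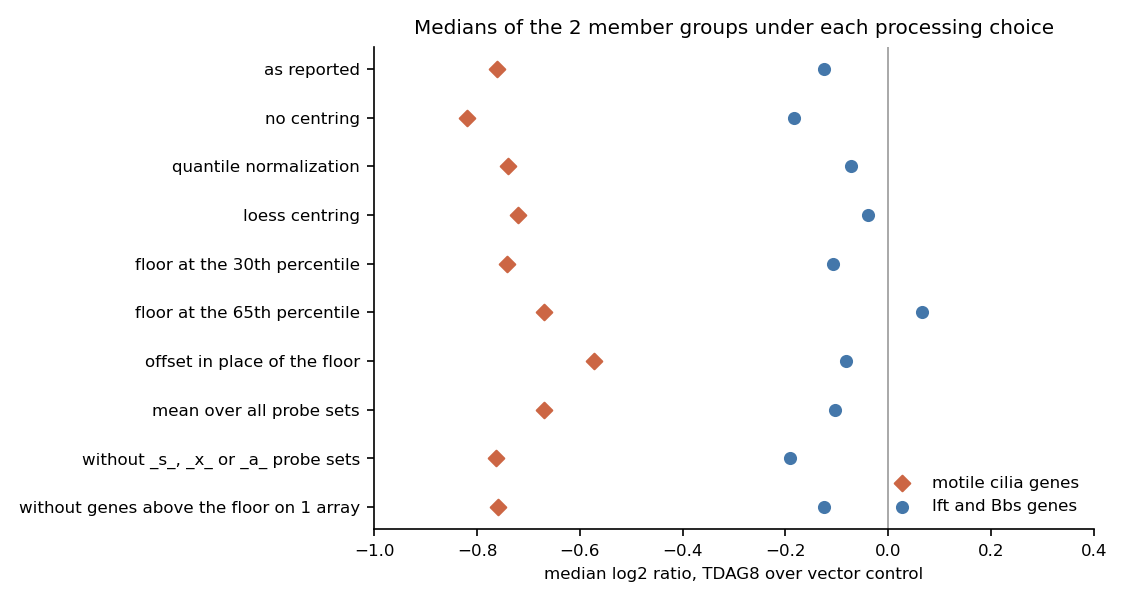
Median log2 ratio of the motile cilia genes (orange diamonds) and of the Ift and Bbs genes (blue circles) as reported and under 9 other processing choices. The diamonds lie between -0.82 and -0.57 and the circles between -0.19 and 0.07.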

How the data were processed

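Whole-lung RNA of 2 groups was measured on 2 Affymetrix arrays, 1 per group, each from a pool of 10 mice, of which 2 µg of RNA was labelled by priming from the poly(A) tail, per the labels' protocols. The values deposited by the authors are linear intensity values with a trimmed mean of 100 on each array. Not given in the sources used here is the image software. Precision is limited by the number of arrays.

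Of 45101 probe sets 64 controls were left out, 34945 had 1 gene symbol in the platform annotation and 34741 of these matched the RefSeq gene table (GRCm38.p6). A gene was read by its brightest probe set, by mean log2 intensity. Values were raised to the floor, genes below it on both arrays were left out, and log2 ratios were centred by a shift of -0.06, the median over 11044 genes. The column medians differed by -0.11. Genes were counted at 1.5-fold and 2-fold, with no test. The text names all 45 members, the 4 brightest and the 2-fold genes of each cilia list and the brightest gene of the marker lists, and further genes singled out after their values were seen. Promoters were to be printed for matches to the stricter X-box, and the windows were chosen after no member matched. One sequence is not reported here. Members, lists and limits were chosen with earlier results of these data known. The ratio code was tested on simulated data (Python 3.11.15, pandas 2.3.3).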

Additional observations from a re-analysis of the deposited data

How the results depend on the processing

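The limits of these results are the 2 arrays and the dim signals: most motile cilia genes lay within a few fold of the floor, so choices about the floor had the largest effect on counts. No paired analysis was possible because each group had 1 array, and leaving out a replicate was not possible for the same reason. With the floor at the 65th percentile the Ift and Bbs median turned to 0.0659, the difference between the medians was -0.74, the other axoneme median was -0.48, and 11 motile and 0 Ift and Bbs genes were at least 1.5-fold lower and 1 motile gene at least 2-fold. That setting leaves fewer genes, 17 motile and 11 Ift and Bbs. With an offset in place of the floor, which shrinks the ratios of dim genes, the motile median was -0.57, the difference -0.49, the other axoneme median -0.45, and 13 motile and 0 Ift and Bbs genes were at least 1.5-fold lower and 0 motile genes 2-fold. With the mean over all probe sets the other axoneme median was -0.42. At least 2-fold lower were 3 motile genes after loess centring and 3 without genes above the floor on 1 array. Of 367 values of single members under an alternative, 347 stayed within 0.27 of the reported ratio, 20 moved by more, and 0 of those at least 1.5-fold different changed sign. Some of these values could not have moved that far. Without centring every ratio shifts by the same -0.06. Leaving out genes above the floor on 1 array keeps the other ratios as they were. Members not measured under a choice have no value there and are not among the 367.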

Other observations

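Some probe sets carry several gene symbols and were in none of the counts. The 1 shared by the inner arm dynein heavy chain genes Dnah7b and Dnah7c went from 75.3 to 32.4, a log2 ratio of -1.16. The 1 shared by the radial spoke genes Rsph3a and Rsph3b went from 463 to 409, a ratio of -0.12, whereas a probe set of Rsph3a alone was at -0.60. Those shared by the Dynlt1 dynein light chain copies, which also serve cytoplasmic dynein, were at 0.29 and 0.33. A probe set shared by Dnaaf2 and ribosomal protein genes went from 2068 to 2920, a ratio of 0.56.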
